A study of Homo sapiens with 4 samples.

Results

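A total of 51 genes that encode the machinery of DNA replication were followed through the knockdown of MYCN in a neuroblastoma cell line. They were chosen by gene symbol from what their products are known to do, with earlier results of these data known. All 51 were among the 26364 genes listed in each sample, and all 51 passed the filter on low values that left 11411 genes for testing. They were grouped into 6 steps of replication, namely origin licensing (9 genes), the core of the replicative helicase (6 genes), helicase activation (10 genes), the DNA polymerases and primase (10 genes), the sliding clamp with its loader and the enzymes that finish Okazaki fragments (9 genes), and the proteins that bind single-stranded DNA or protect the fork (7 genes).

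Before a cell copies its DNA, the origin recognition complex binds replication origins and, with CDC6 and CDT1, loads rings of the MCM helicase onto the DNA, while geminin holds CDT1 back once the S phase has begun. Kinases and the factors CDC45 and GINS then turn the loaded rings into moving helicases. Primase and polymerase alpha start each DNA strand, polymerases delta and epsilon extend it, and the PCNA clamp holds them on the template. MYCN is a transcription factor of the MYC family, which binds the E-box, and genes of replication are known targets of both MYC proteins and the E2F factors that switch on S-phase genes.

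The line was BE(2)C, a human neuroblastoma line with amplified MYCN, and RNA-seq covered 2 groups with 2 samples each. The control group (Ctrl, labelled wild type) was given a non-targeting siRNA, and the knockdown group (MYCN KD) was given an siRNA that targets MYCN. Per the labels, both groups were transfected for 6 h, and RNA was taken the next day. The labels and the study's methods differ on the siRNA concentration, which is left out here. All samples came from 1 cell line and 1 agent against MYCN, and the study calls the samples of a group biological replicates without saying whether they were separate cultures, so the p-values measure only the spread between these samples, which may be technical. In bulk RNA, fewer cells in S phase and less RNA per cell cannot be told apart.

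Expression was given as RPKM, the reads per kilobase of gene at a common depth, which allows levels to be compared between genes. Per the methods, RPKM was made from counts after normalization, so reads given here are normalized reads and not the sequenced depth. The RPKM values rested on 29055819 to 34142988 such reads per sample. The members rested on at least 321 (PRIM2) to 32404 (MCM7) such reads per gene and sample. MYCN had 1070 RPKM in each Ctrl sample as against 720 and 718 RPKM after knockdown, a log2 fold change of -0.57 (limma, adjusted p = 0.00361). The mean was at 67.2% of Ctrl, without overlap between the groups. Fold changes are MYCN KD minus Ctrl on the scale of log2(RPKM + 1), which understates the change of genes with low RPKM, and all p-values were adjusted over the 11411 genes with the Benjamini-Hochberg method at a threshold of 0.05. In 11337 of these genes (99.4%), and in 49 of the 51 members, replicates 1 and 2 differed in opposite directions in the 2 groups, so the replicate differences of the groups mirrored each other and were not independent measures of error. Exons of 13 members overlap those of another listed gene (such as NACA for PRIM1 and FADS2 for FEN1), and 10 members have a named pseudogene copy, so the reads of these members are less certain. The summed RPKM of 10 adrenergic neuroblastoma markers was 3860 and 3560 in Ctrl, against 5020 and 5440 in MYCN KD. Of the 10, 6 were higher (PHOX2A, HAND2, ISL1, DBH, CHGA and CHGB), beside 25.3% of all tested genes, 1 was lower and 3 did not pass the threshold. The summed RPKM of 13 markers of blood, endothelial, connective tissue and epithelial cells was 10.5 and 10.8 in Ctrl, against 22.2 and 22.4 in MYCN KD. Of these 13, 10 were below the filter on low values, KRT5 was at 0 in all samples, and CD68, COL1A1 and DCN were higher, and their part in the results was not tested.

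Most of the replication genes fell in MYCN KD. Of the 51 members, 36 (70.6%) were lower at an adjusted p under 0.05 from limma, beside 22.8% of all tested genes. By contrast, 1 member (ORC4) was higher, beside 25.3% of all tested genes, and 14 did not pass the threshold. Both MYCN KD values lay below both Ctrl values in 43 members, beside 35.8% of all tested genes, and above them in 1 member, beside 40.4%. In the other 7 members the groups overlapped. The log2 fold change was negative in 50 of 51 members, with a median of -0.387 and quartiles of -0.548 and -0.23, while the median over all tested genes was 0.026 with quartiles of -0.235 and 0.285. The median member was at 75.3% of its Ctrl level. Summed over the 51 genes, the RPKM was 2633 and 2676 in Ctrl, against 1910 and 1902 in MYCN KD, so both MYCN KD sums lay below both Ctrl sums.

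**Figure D1:**
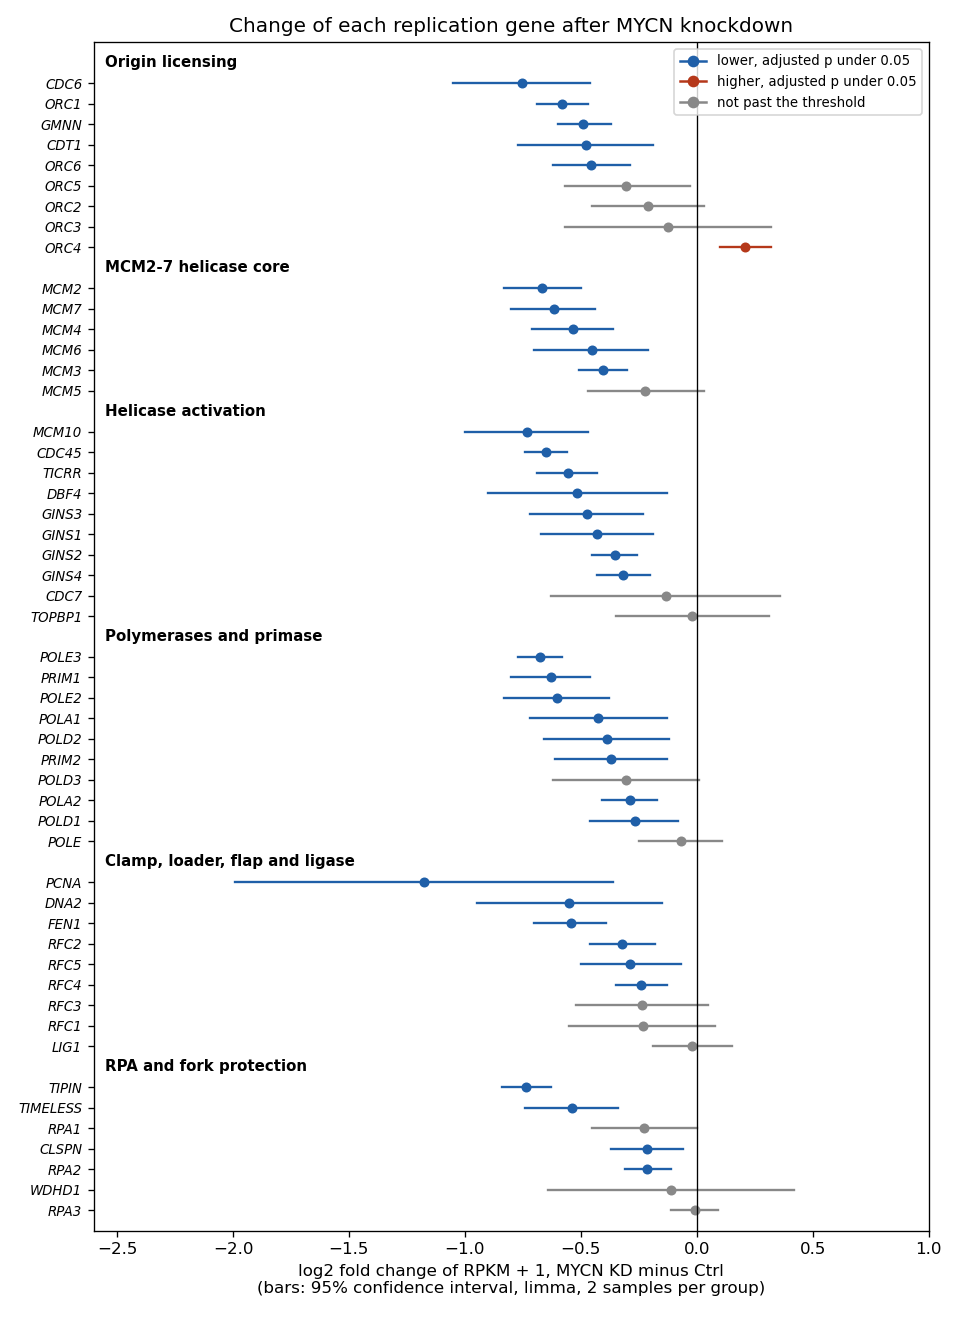
Log2 fold change of RPKM + 1 (MYCN KD minus Ctrl) of each of the 51 replication genes, by step, with 95% confidence intervals from limma on 2 samples per group. Blue genes were lower and the red gene was higher at an adjusted p under 0.05, grey genes did not pass the threshold, and the estimates run from -1.18 (PCNA) to 0.21 (ORC4).

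The promoters of 6 members are shown because they bear the sequence that MYC proteins bind, the sequence that E2F factors bind, or both, in genes that changed in the 2 directions. The sequences are from RefSeq (GRCh38.p14), cover 250 bases before and 50 bases after a transcription start, and read 5′ to 3′ on the gene's strand. Capitals mark the E-box CACGTG and the E2F-type letters TTTCCCGC, TTTGGCGC and TTTCGCGC, each searched on both strands. MCM2 (chr3:127598161-127598460, plus strand) and MCM7 (chr7:100101348-100101647, minus strand) encode helicase subunits and hold both motifs in 1 window. The E-box begins 11 bases before the start in MCM2 and 25 bases before it in MCM7, and an E2F-type match follows it, 2 bases after the start in MCM2 and 9 bases before it in MCM7. The E2F-type match of MCM2 reads on both strands, which gives 2 overlapping matches. GMNN (chr6:24774687-24774986, plus strand), which encodes geminin, holds its E-box 10 bases after this start and an E2F-type match at its other start, which is not shown. FEN1 (chr11:61792661-61792960, plus strand), which encodes the flap endonuclease, holds an E-box alone. CDC6 (chr17:40287629-40287928, plus strand), which encodes the ATPase that loads the helicase, holds an E2F-type match alone. ORC4 (chr2:148020688-148020987, minus strand), which encodes a subunit of the origin recognition complex and is the member that rose, holds an E-box that begins 62 bases before the start.
MCM2: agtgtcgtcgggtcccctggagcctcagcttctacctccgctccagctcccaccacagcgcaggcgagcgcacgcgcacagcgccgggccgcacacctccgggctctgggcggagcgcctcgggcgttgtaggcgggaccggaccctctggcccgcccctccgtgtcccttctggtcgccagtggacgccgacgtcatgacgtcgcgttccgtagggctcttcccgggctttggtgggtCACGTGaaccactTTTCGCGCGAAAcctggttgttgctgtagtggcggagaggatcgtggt
MCM7: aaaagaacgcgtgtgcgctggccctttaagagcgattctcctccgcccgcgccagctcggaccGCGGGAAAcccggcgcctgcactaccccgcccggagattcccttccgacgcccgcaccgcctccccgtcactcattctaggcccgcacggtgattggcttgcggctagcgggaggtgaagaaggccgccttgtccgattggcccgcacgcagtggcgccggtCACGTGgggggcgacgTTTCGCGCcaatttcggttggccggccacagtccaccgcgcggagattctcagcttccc
GMNN: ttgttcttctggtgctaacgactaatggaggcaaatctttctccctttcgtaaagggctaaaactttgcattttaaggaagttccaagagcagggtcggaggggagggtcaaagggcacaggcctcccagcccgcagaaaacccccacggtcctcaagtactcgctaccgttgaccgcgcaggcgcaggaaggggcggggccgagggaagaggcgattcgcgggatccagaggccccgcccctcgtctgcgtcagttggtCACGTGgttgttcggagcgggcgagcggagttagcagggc
FEN1: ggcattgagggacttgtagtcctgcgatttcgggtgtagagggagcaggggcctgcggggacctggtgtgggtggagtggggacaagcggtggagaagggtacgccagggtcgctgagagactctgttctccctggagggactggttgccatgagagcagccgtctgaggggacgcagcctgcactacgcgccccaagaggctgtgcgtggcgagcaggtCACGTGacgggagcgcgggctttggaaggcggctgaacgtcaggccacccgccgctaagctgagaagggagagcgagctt
CDC6: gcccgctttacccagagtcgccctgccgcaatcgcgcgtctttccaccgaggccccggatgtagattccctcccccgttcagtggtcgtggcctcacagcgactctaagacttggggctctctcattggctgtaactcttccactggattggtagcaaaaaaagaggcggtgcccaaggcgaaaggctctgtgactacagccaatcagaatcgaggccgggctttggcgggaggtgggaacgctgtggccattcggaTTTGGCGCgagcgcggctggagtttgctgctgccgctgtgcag
ORC4: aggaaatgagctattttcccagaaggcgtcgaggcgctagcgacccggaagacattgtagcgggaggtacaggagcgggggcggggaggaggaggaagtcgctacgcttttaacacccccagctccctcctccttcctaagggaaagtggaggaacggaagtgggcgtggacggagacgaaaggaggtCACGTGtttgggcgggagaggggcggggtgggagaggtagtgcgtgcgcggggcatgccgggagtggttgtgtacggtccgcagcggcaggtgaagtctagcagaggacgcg

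Of the 9 licensing genes, 5 fell, 1 rose and 3 did not pass the threshold, with a median log2 fold change of -0.454. RPKM values are given from here on in the order Ctrl replicate 1, Ctrl replicate 2, MYCN KD replicate 1 and MYCN KD replicate 2. CDC6, whose promoter is shown above, had 53.7, 61.2, 35.7 and 31.5 RPKM, a log2 fold change of -0.76 (SE 0.101, limma, adjusted p = 0.0124). Both MYCN KD samples were below both Ctrl samples, and the mean was at 58.5% of Ctrl. CDT1, the partner of CDC6 in loading the helicase, had 59.4, 52.4, 37.5 and 42.3 RPKM (log2 fold change -0.48, limma, adjusted p = 0.0296). GMNN, whose product inhibits CDT1, had 43.4, 44.8, 31.6 and 30.7 RPKM (log2 fold change -0.49, limma, adjusted p = 0.00556). The loader and its inhibitor thus fell by similar amounts, with no overlap between the groups in either.

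Of the 6 subunits of the origin recognition complex, 2 fell, 1 rose and 3 did not pass the threshold. ORC1, the subunit whose level is known to cycle in human cells, had 15.3, 15, 9.73 and 9.91 RPKM, a log2 fold change of -0.58 (limma, adjusted p = 0.0044). ORC6 had 42.5, 45.2, 32.6 and 30.8 RPKM (log2 fold change -0.45, limma, adjusted p = 0.0104). Both were without overlap between the groups. ORC5 had 13.4, 15.1, 12.0 and 10.7 RPKM, and its log2 fold change of -0.30 did not pass the threshold (limma, adjusted p = 0.068). With a sample left out, that fold change ran from -0.385 to -0.223. Such a fit rests on the spread within 1 group only, so its calls are not comparable with those of the main fit. ORC2 had 12.9, 14.2, 12.1 and 11 RPKM (log2 fold change -0.21, 95% interval -0.45 to 0.03, limma, adjusted p = 0.11). The groups did not overlap in ORC5 and ORC2. ORC3 had 12.7, 15.7, 14.3 and 11.7 RPKM, and its groups overlapped (log2 fold change -0.12, 95% interval -0.57 to 0.32).

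ORC4 had the lowest level of all 51 members in every sample and was the member that rose. It had 2.24, 2.24, 2.74 and 2.75 RPKM, from at least 504 to 598 reads per sample, a log2 fold change of 0.21 (SE 0.0367, limma, adjusted p = 0.0215). Without the pseudocount the ratio of means was 1.23. The call was lost with quantile normalization (log2 fold change 0.11, limma, adjusted p = 0.132) and with replicate number as a block (limma, adjusted p = 0.344). With any of the 4 samples left out, the log2 fold change was 0.209 to 0.21. In GRCh37, ORC4 spans chr2:148687965-148779173 on the minus strand, and its exons overlap exons of ACVR2A and MBD5 on the other strand. MBD5 had 1.47, 1.53, 1.99 and 1.90 RPKM and was also higher (log2 fold change 0.24, limma, adjusted p = 0.0209). ACVR2A had 0.667, 0.678, 0.544 and 0.534 RPKM and was below the filter. Whether the reads were counted by strand is not given in the sources used here, so reads of ORC4 and of these neighbours may not have been told apart.

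**Figure D2:**
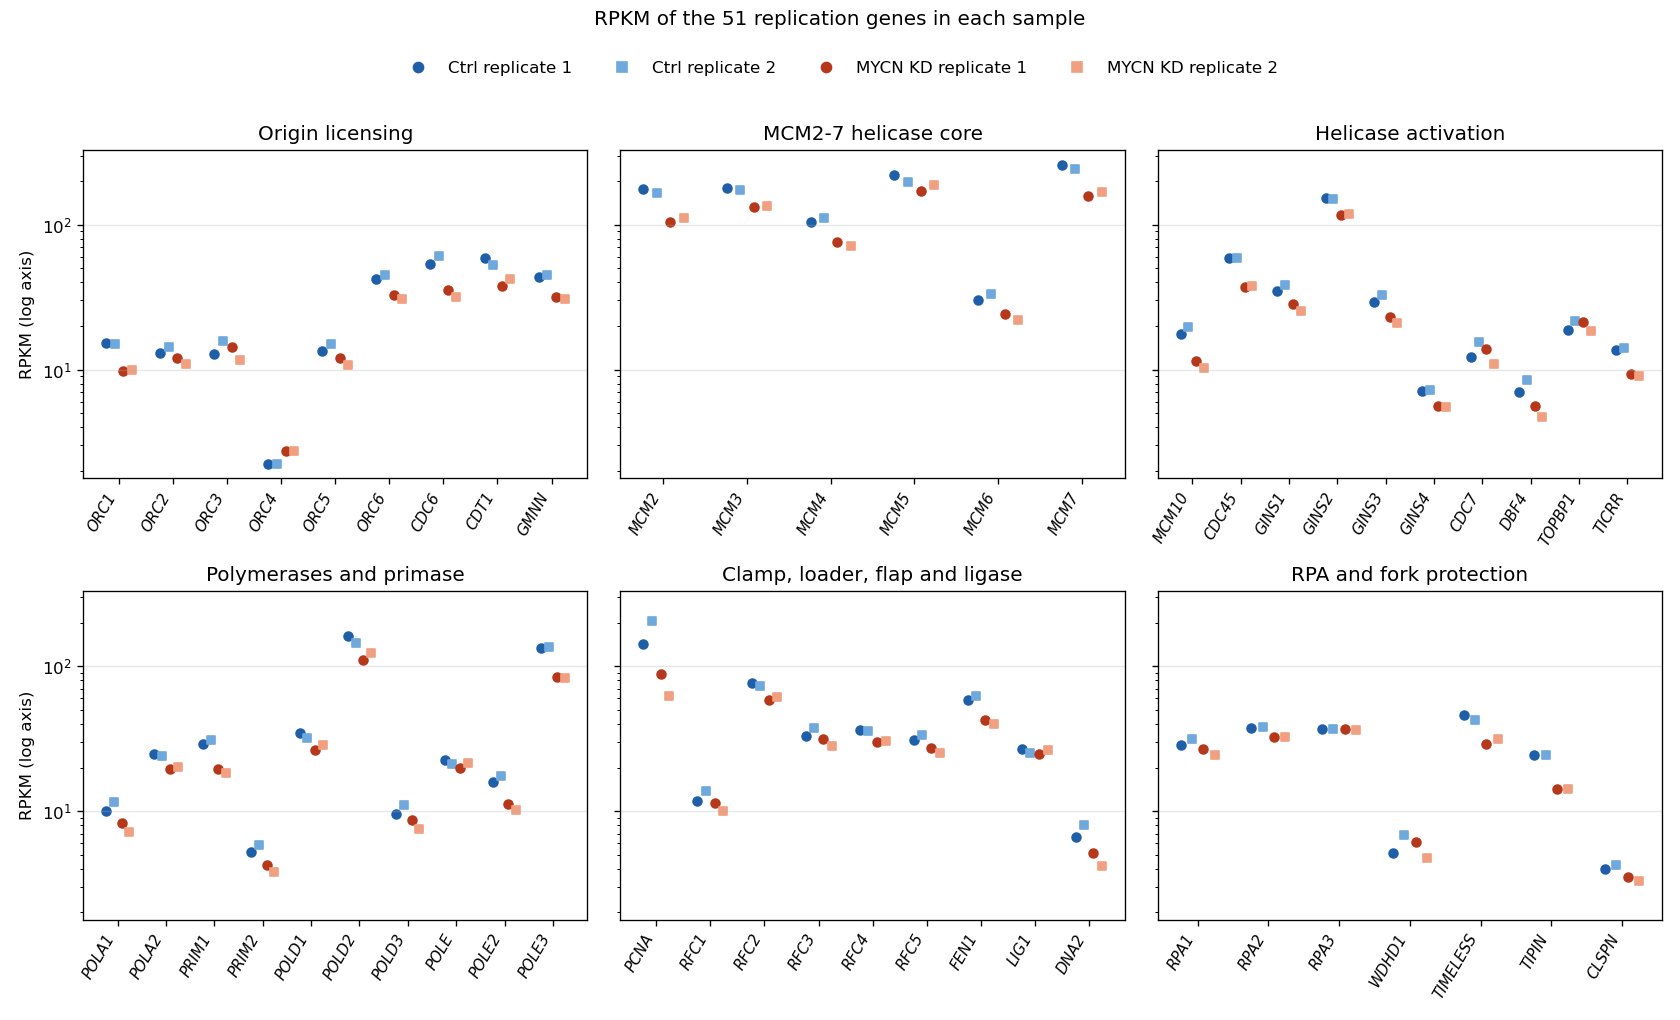
RPKM of each of the 51 replication genes in each of the 4 samples on a log axis, by step, with Ctrl in blue and MYCN KD in red, circles for replicate 1 and squares for replicate 2. Of the 6 MCM core genes, 5 lie at 71.8 RPKM or above in all samples, MCM7 leads in Ctrl at 260 and 243 RPKM, and ORC4 lies lowest at 2.24 to 2.75 RPKM.

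The 6 genes of the MCM core, whose products form the ring that unwinds DNA, had the highest step median, 174 RPKM in Ctrl and 121 RPKM in MYCN KD. Of these, 5 fell and 1 did not pass the threshold, with a median log2 fold change of -0.493, the lowest of the 6 steps. MCM2 had 177, 166, 104 and 111 RPKM, a log2 fold change of -0.67 (SE 0.0572, limma, adjusted p = 0.00604). MCM7 had 260, 243, 158 and 169 RPKM (log2 fold change -0.62, limma, adjusted p = 0.00719). Among the core genes whose promoters could be searched, which leaves out MCM4 and MCM5, these are the 2 with both an E-box and E2F-type letters, as shown above. MCM4 had 104, 112, 76.6 and 71.8 RPKM (log2 fold change -0.53, limma, adjusted p = 0.00881). MCM6 had 30.2, 33.5, 24.2 and 21.9 RPKM (log2 fold change -0.45, limma, adjusted p = 0.0237). MCM3 had 179, 175, 132 and 135 RPKM (log2 fold change -0.41, limma, adjusted p = 0.006). Although the 6 subunits sit in the ring in equal number, MCM6 was at 31.8 RPKM and MCM7 at 251 RPKM in the Ctrl mean, a 7.89-fold span.

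MCM5 was the core gene that did not pass. It had 221, 199, 171 and 189 RPKM, and although the groups did not overlap, its log2 fold change of -0.22 did not pass the threshold (95% interval -0.47 to 0.03, limma, adjusted p = 0.109). With a sample left out, the log2 fold change of MCM5 ran from -0.296 to -0.147. MCM7 had the highest level of all members in both Ctrl samples, and MCM5 had it in both MYCN KD samples. The exons of MCM7 (GRCh37 chr7:99689856-99699563, minus strand) also overlap those of AP4M1 and of the microRNA gene MIR93, so its reads may include some from these genes.

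Of the 10 genes of helicase activation, 8 fell and 2 did not pass the threshold, with a median log2 fold change of -0.452. MCM10, which helps the helicase to leave the origin, had 17.6, 19.8, 11.5 and 10.3 RPKM, a log2 fold change of -0.73 (limma, adjusted p = 0.0104). CDC45, which becomes part of the moving helicase, had 59.4, 59.0, 37.2 and 37.5 RPKM (log2 fold change -0.65, SE 0.0319, limma, adjusted p = 0.00359). TICRR, the human treslin that brings CDC45 to origins, had 13.6, 14.1, 9.26 and 8.96 RPKM (log2 fold change -0.56, limma, adjusted p = 0.00549). The means of these 3 genes were at 58.0%, 63.1% and 65.7% of Ctrl. The 4 subunits of GINS, the other helper of the moving helicase, all fell, with log2 fold changes of -0.47 (GINS3), -0.43 (GINS1), -0.35 (GINS2) and -0.32 (GINS4). GINS2 had 153, 150, 117 and 119 RPKM and GINS4 7.12, 7.23, 5.59 and 5.52 RPKM, so these subunits of 1 complex differed 21.0-fold in their Ctrl mean. The call of GINS4 was lost with replicate number as a block (limma, adjusted p = 0.146). With any of the 4 samples left out, its log2 fold change ran from -0.328 to -0.309.

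The kinase that fires origins is made of CDC7 and its activator DBF4, and DBF4 fell while CDC7 did not pass the threshold. DBF4 had 7.02, 8.52, 5.61 and 4.66 RPKM, a log2 fold change of -0.52 close to the threshold (limma, adjusted p = 0.048). The call was lost with no filter on low values and with each sample scaled to the same total (limma, adjusted p = 0.0757 and 0.0786). CDC7 had 12.2, 15.4, 13.8 and 11 RPKM, and its groups overlapped (log2 fold change -0.13, 95% interval -0.63 to 0.36). TOPBP1, a scaffold for helicase assembly and for ATR activation, had 18.7, 21.7, 21.3 and 18.5 RPKM, also with overlapping groups (log2 fold change -0.02, 95% interval -0.35 to 0.31). The difference between CDC7 and DBF4 was not tested.

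Of the 10 polymerase and primase genes, 8 fell and 2 did not pass the threshold, with a median log2 fold change of -0.379. With no filter on low values 4 fell, and with replicate number as a block it was 5. In polymerase epsilon, both accessory subunits among the members fell, and the catalytic subunit did not pass the threshold. POLE3, a histone-fold subunit, had 134, 136, 84.6 and 83.7 RPKM, a log2 fold change of -0.68 (SE 0.0313, limma, adjusted p = 0.00359). POLE2 had 15.9, 17.6, 11.2 and 10.2 RPKM (log2 fold change -0.60, limma, adjusted p = 0.0112). POLE, the catalytic subunit, had 22.5, 21.0, 20.0 and 21.4 RPKM, with overlapping groups and a log2 fold change of -0.07 (95% interval -0.25 to 0.11, limma, adjusted p = 0.419). The interval of POLE did not overlap those of POLE2 and POLE3. POLE4, a further subunit of the complex that is not a member, did not pass the threshold (log2 fold change -0.13, limma, adjusted p = 0.115).

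PRIM1, the catalytic subunit of primase, had 28.9, 30.9, 19.6 and 18.4 RPKM, a log2 fold change of -0.63 (limma, adjusted p = 0.00666). PRIM2, the larger primase subunit, had 5.20, 5.82, 4.25 and 3.81 RPKM (log2 fold change -0.37, limma, adjusted p = 0.0332). PRIM2 overlaps PRIM2BP, a copy of it, in the annotation, so its reads are uncertain. The catalytic subunit of polymerase alpha, POLA1, fell by 0.43 on the log2 scale (limma, adjusted p = 0.0408), and its partner POLA2 fell by 0.29 (limma, adjusted p = 0.013). With a sample left out, the fold changes kept their sign (log2 from -0.442 to -0.302 for PRIM2, from -0.517 to -0.335 for POLA1, from -0.308 to -0.27 for POLA2 and from -0.321 to -0.216 for POLD1). The calls of PRIM2, POLA2 and POLD1 were lost with replicate number as a block (limma, adjusted p = 0.0824, 0.137 and 0.155). That of POLA1 was lost with each sample scaled to the same total (limma, adjusted p = 0.0762). In polymerase delta, POLD2 had 162, 145, 111 and 124 RPKM (log2 fold change -0.39, limma, adjusted p = 0.0402). The catalytic POLD1 had 34.6, 32.1, 26.5 and 28.6 RPKM (log2 fold change -0.27, limma, adjusted p = 0.0419). POLD3 had 9.49, 11, 8.66 and 7.53 RPKM without overlap between the groups, and its log2 fold change of -0.30 did not pass the threshold (limma, adjusted p = 0.0917). With a sample left out, that fold change ran from -0.399 to -0.209.

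Of the 9 genes of the clamp, its loader and Okazaki fragment processing, 6 fell and 3 did not pass the threshold, with a median log2 fold change of -0.288. The count was 3 with no filter on low values and with each sample scaled to the same total. PCNA, the sliding clamp (GRCh37 chr20:5095599-5107272, minus strand), had the lowest fold change of all members. It had 142, 205, 89.1 and 62.6 RPKM, a log2 fold change of -1.18 (SE 0.278, 95% interval -1.99 to -0.36, limma, adjusted p = 0.04). The mean was at 43.8% of Ctrl, and the groups did not overlap, but on the log2 scale the replicates differed more than in any other member, which gave the widest interval. The call was lost with no filter on low values (limma, adjusted p = 0.0652) and with each sample scaled to the same total (limma, adjusted p = 0.0536). The annotation names 3 pseudogene copies of PCNA, so reads may be split between them.

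FEN1, which cuts the flap at the end of each Okazaki fragment, had 58.9, 62.4, 42.5 and 40.2 RPKM, a log2 fold change of -0.54 (limma, adjusted p = 0.00723). DNA2, which trims longer flaps, had 6.57, 8.04, 5.10 and 4.20 RPKM (log2 fold change -0.55, limma, adjusted p = 0.0437). LIG1, the ligase that seals the fragments, had 26.7, 25, 24.7 and 26.3 RPKM. Its groups overlapped, and its log2 fold change was -0.02 with a 95% interval of -0.19 to 0.15 (limma, adjusted p = 0.807). The 5 subunits of the clamp loader had log2 fold changes from -0.32 (RFC2) to -0.23 (RFC1). RFC2, RFC4 and RFC5 passed the threshold (limma, adjusted p = 0.015, 0.0167 and 0.0461), and RFC1 and RFC3, whose groups did not overlap, did not (limma, adjusted p = 0.16 and 0.124). RFC2, RFC4 and RFC5 lost their calls with replicate number as a block. With any of the 4 samples left out, the log2 fold change of RFC4 ran from -0.257 to -0.222.

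Of the 7 genes of single-stranded DNA binding and fork protection, 4 fell and 3 did not pass the threshold, with a median log2 fold change of -0.214, the closest to 0 of the 6 steps. TIPIN and TIMELESS, which form a complex that steadies the fork, fell most. TIPIN had 24.4, 24.5, 14.3 and 14.3 RPKM, a log2 fold change of -0.73 (SE 0.0345, limma, adjusted p = 0.00359). TIMELESS had 46.3, 42.8, 29.2 and 31.6 RPKM (log2 fold change -0.54, limma, adjusted p = 0.0112). CLSPN, which encodes the checkpoint mediator claspin, had 3.97, 4.24, 3.50 and 3.30 RPKM (log2 fold change -0.21, limma, adjusted p = 0.0459). RPA2 fell by 0.21 on the log2 scale (limma, adjusted p = 0.0174). The calls of CLSPN and RPA2 were lost with each sample scaled to the same total and with replicate number as a block. That left TIPIN and TIMELESS as the 2 lower genes of the step.

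The 3 subunits of RPA, the complex that coats single-stranded DNA, had a Ctrl mean of 30.2 (RPA1), 37.8 (RPA2) and 37.0 (RPA3) RPKM. RPA1 had 28.8, 31.6, 26.8 and 24.5 RPKM without overlap, and its log2 fold change of -0.23 did not pass the threshold (limma, adjusted p = 0.084). RPA3 had 36.8, 37.2, 37.0 and 36.6 RPKM, with overlapping groups and a log2 fold change of -0.01 (95% interval -0.11 to 0.09, limma, adjusted p = 0.842). WDHD1, which links polymerase alpha to the helicase, had 5.17, 6.79, 6.16 and 4.74 RPKM with overlapping groups (log2 fold change -0.11, 95% interval -0.64 to 0.42).

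Across the 51 members the Ctrl mean ran from 2.24 RPKM (ORC4) to 251 RPKM (MCM7), a 112-fold span that was 65.7-fold in MYCN KD. The log2 fold change and the log2 mean RPKM of the members had a Pearson correlation of -0.366 and a Spearman correlation of -0.31 over the 51 genes, which share the 4 libraries. Members with higher levels thus tended to have lower fold changes, and the pseudocount draws the fold changes of low genes towards 0. The ends of the order held in both groups. ORC4, CLSPN and PRIM2 were among the 4 lowest in every sample, and MCM7, MCM5 and MCM3 were among the 4 highest.

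The balance between partners was taken as the log2 ratio of their RPKM within a sample, which does not depend on how the samples are scaled. The exact two-sided permutation test of 2 samples against 2 cannot give a p under 0.3333, so it cannot reach the threshold. CDT1 to its inhibitor GMNN was 0.45 and 0.23 in Ctrl, against 0.25 and 0.46 in MYCN KD, with overlapping groups. The gap between the groups was 0.015, far under the spread between the replicates (exact permutation p = 0.6667). ORC1 to ORC2 was 0.25 and 0.08 in Ctrl, against -0.32 and -0.15 in MYCN KD (exact permutation p = 0.3333). POLE2 to POLE was -0.50 and -0.26 in Ctrl, against -0.84 and -1.07 in MYCN KD (exact permutation p = 0.3333). The groups did not overlap in these 2 pairs, with differences of -0.40 and -0.58. They overlapped for MCM10 to MCM2, RFC4 to RFC1 and POLA2 to POLA1, and over the 6 pairs every adjusted p was 0.6667.

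A further 5 pairs were chosen after their values were seen and are given as a description. MCM7 to MCM5 was 0.23 and 0.28 in Ctrl, against -0.12 and -0.16 in MYCN KD, so the order of these 2 helicase genes turned over in both MYCN KD samples. ORC4 to ORC1 was -2.77 and -2.75 in Ctrl, against -1.83 and -1.85 in MYCN KD. TIPIN to TIMELESS was -0.92 and -0.81 in Ctrl, against -1.03 and -1.14 in MYCN KD. PCNA to LIG1 was 2.41 and 3.03 in Ctrl, against 1.85 and 1.25 in MYCN KD, with linear RPKM ratios of 5.3 and 8.18 for Ctrl, against 3.61 and 2.38 for MYCN KD. POLD4, the smallest subunit of polymerase delta and not 1 of the 51 genes, to POLD1 was -2.10 and -2.06 in Ctrl, against -0.51 and -0.56 in MYCN KD. None of these 5 overlapped between the groups.

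**Figure D3:**
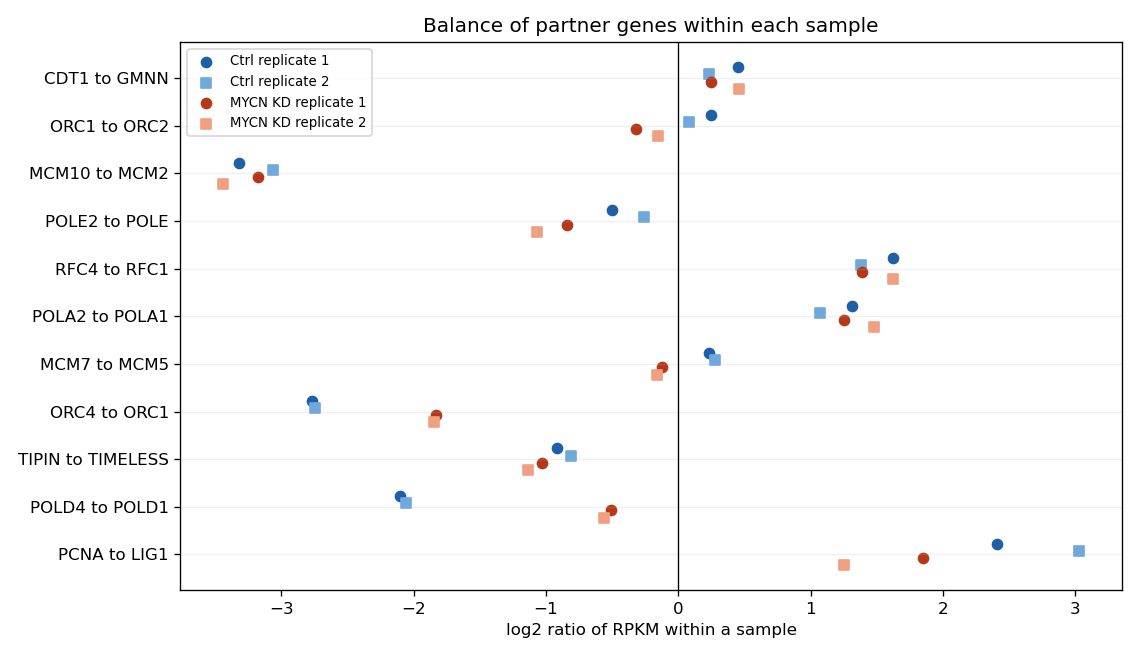
Log2 ratio of RPKM of 11 partner pairs within each of the 4 samples, with Ctrl in blue and MYCN KD in red, circles for replicate 1 and squares for replicate 2. The POLD4 to POLD1 ratio rises from about -2.10 and -2.06 in Ctrl to -0.51 and -0.56 in MYCN KD, while CDT1 to GMNN covers the same range in both groups.

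Other genes of replication that are not members were also counted. Of 28 such genes, 10 fell, 3 rose and 15 did not pass the threshold, with a median log2 fold change of -0.15. Of the genes of histone deposition at the fork, CHAF1A (74.1, 71.5, 45.9 and 47.6 RPKM, log2 fold change -0.63) and CHAF1B (log2 fold change -0.53) fell, and ASF1B did not pass the threshold (65.9, 64.2, 66.9 and 68.7 RPKM, log2 fold change 0.06, limma, adjusted p = 0.258). Of the 3 listed genes of an alternative clamp loader, DSCC1 fell (log2 fold change -0.64), CHTF8 rose (log2 fold change 0.28, limma, adjusted p = 0.0268) and CHTF18 did not pass the threshold (log2 fold change -0.07, limma, adjusted p = 0.508). POLD4 rose most, from 8.05 and 7.73 RPKM to 18.7 and 19.4 RPKM, a log2 fold change of 1.17 (SE 0.0455, limma, adjusted p = 0.00359). POLD4 was thus at 241% of Ctrl while the members POLD1 and POLD2 of the same polymerase fell. ETAA1, an activator of ATR, also rose (log2 fold change 0.27). Topoisomerases TOP1 and TOP2A, which relieve the twist ahead of the fork, did not pass the threshold (log2 fold changes -0.15 and -0.16).

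Of 10 genes of nucleotide supply, 2 fell and 8 did not pass the threshold, with a median log2 fold change of -0.126. DUT, which removes dUTP, had 57.6, 65.2, 43.5 and 38.6 RPKM (log2 fold change -0.57, limma, adjusted p = 0.0202), and TYMS, which makes thymidylate, had 33.5, 35.7, 24.4 and 22.9 RPKM (log2 fold change -0.53, limma, adjusted p = 0.00831). RRM2, the regulated subunit of ribonucleotide reductase, had 149, 166, 161 and 146 RPKM with overlapping groups (95% interval of the log2 fold change -0.28 to 0.21).

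Of 10 cyclins, kinases and inhibitors of the entry into S phase, 4 fell and 1 rose, with a median log2 fold change of -0.2. CDC25A, the phosphatase that activates CDK2, had 35.4, 36, 19.3 and 19.0 RPKM (log2 fold change -0.86, limma, adjusted p = 0.00359). CDKN1A, which encodes the inhibitor p21, had 7.08, 7.63, 23.1 and 21.4 RPKM (log2 fold change 1.48, limma, adjusted p = 0.00359) and was at 303% of Ctrl. CCNE1, CCNA2 and CDK4 also fell, by 0.57, 0.57 and 0.48 on the log2 scale. Of 9 genes of the ATR checkpoint, CHEK1 and RAD1 fell (log2 fold changes -0.40 and -0.33) and RAD17 rose (0.33), with a median of -0.067.

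Of 20 genes of G2 and mitosis, 13 fell and 7 did not pass the threshold, with a median log2 fold change of -0.359, close to that of the members. TPX2 and AURKA, which act together at the spindle, had the lowest fold changes among those that fell (-0.79 and -0.70). MKI67, a marker of cycling cells, had 42.9, 46.5, 46.5 and 43.1 RPKM with overlapping groups (95% interval of the log2 fold change -0.19 to 0.20). The share of lower genes was thus 70.6% for the members, 65.0% for G2 and mitosis, 40.0% for the cyclins and kinases, 35.7% for the other replication genes, 22.2% for the ATR checkpoint and 20.0% for nucleotide supply, beside the 22.8% of all tested genes.

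**Figure D4:**
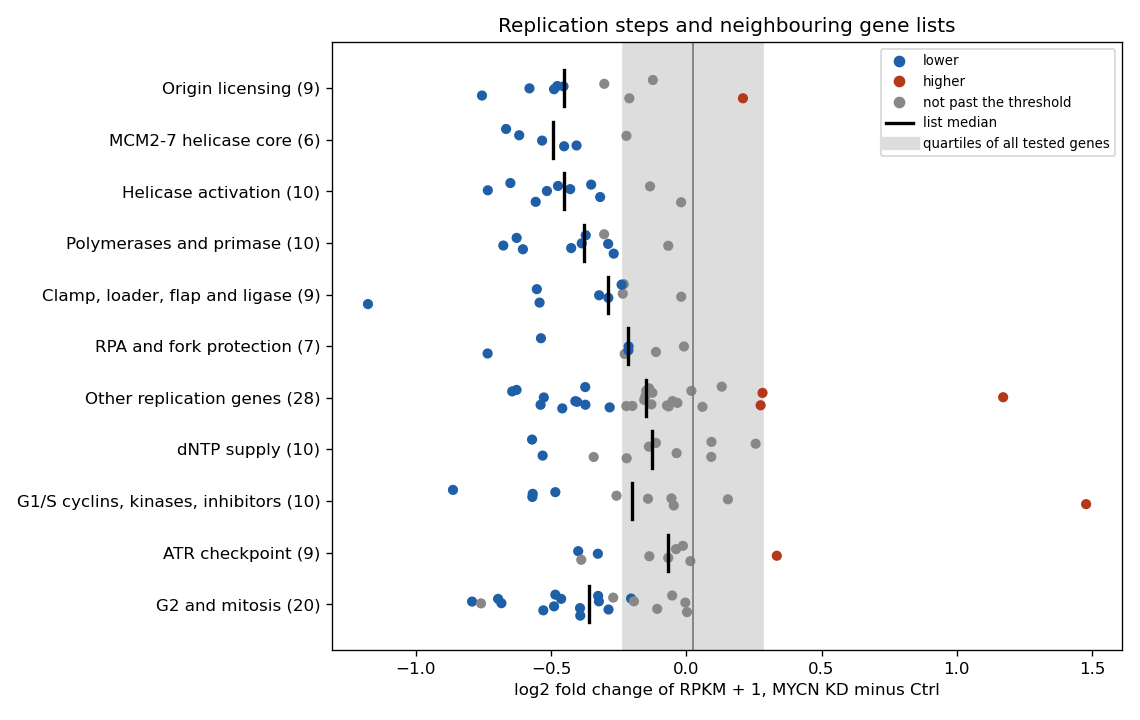
Log2 fold change of RPKM + 1 (MYCN KD minus Ctrl) of every gene in the 6 steps and in 5 neighbouring lists, with the number of genes in brackets, a black bar at each list median and a grey band for the quartiles of all tested genes (-0.235 to 0.285). The medians of the first 5 steps (from -0.493 to -0.288) and of G2 and mitosis (-0.359) lie left of the band, and the highest points are CDKN1A (1.48) and POLD4 (1.17).

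RefSeq promoters of the same length were matched by symbol for 44 of the 51 members and for 8489 of the tested genes, and motifs were counted over all listed starts of a gene. An E-box was in 8 of 44 members (18.2%), in 13.2% of the tested genes and in 8.77% of all 27305 genes with a promoter. RPA2, DNA2, RPA3, MCM4, GINS4, MCM5 and POLD3 were not matched. The 8 with an E-box were FEN1, GMNN, MCM2, MCM7, ORC4, POLE3, RPA1 and TIMELESS. The E2F-type letters were in 22 of 44 members (50%), in 5.84% of the tested genes and in 3.3% of all genes. The letters CCAAT, which NF-Y binds, searched on both strands, were in 25 of 44 members (56.8%), in 43.9% of the tested genes and in 39.7% of all genes. An E-box and E2F-type letters were both found, at any start of the gene, in GMNN, MCM2 and MCM7 (6.82%), and in 0.907% of the tested genes. In GMNN they were at different starts.

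The 3 members with both motifs all fell, with log2 fold changes from -0.67 to -0.49. Of the 5 with an E-box alone, 3 fell (POLE3, FEN1 and TIMELESS), 1 did not pass the threshold (RPA1) and 1 rose (ORC4), with a median of -0.538. Of the 19 with E2F-type letters alone, 13 fell, with a median of -0.406. Of the 17 with neither, 13 fell, with a median of -0.372. The ranges of these groups overlapped widely, and no test was made between them. Over all tested genes with a promoter, 32.5% of those with an E-box and 21.4% of those without it were lower, and 30.2% of those with E2F-type letters and 22.4% of those without them. For CCAAT the shares were 22.6% with it and 23.1% without it. A match of letters is a description and not a measured binding site.

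**Figure D5:**
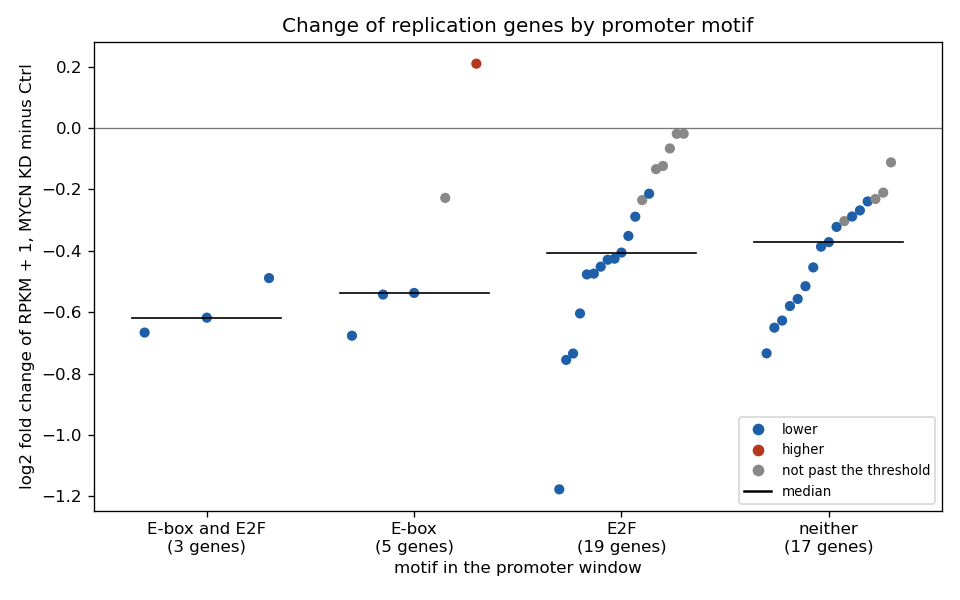
Log2 fold change of RPKM + 1 (MYCN KD minus Ctrl) of the 44 replication genes with a RefSeq promoter, grouped by the motif found, with a bar at each median. The medians are -0.618, -0.538, -0.406 and -0.372 from left to right, and ORC4, at 0.21, is the 1 point above 0.

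Of the 36 members that fell, 21 kept the call in every alternative of the processing that used all 4 samples. They were ORC1, ORC6, CDC6, CDT1 and GMNN of licensing, MCM2, MCM3, MCM4, MCM6 and MCM7 of the core, MCM10, CDC45, GINS2, GINS3 and TICRR of activation, PRIM1, POLE2 and POLE3 of the polymerases, FEN1, and TIMELESS and TIPIN. Every gene of licensing and of the core that fell was therefore among them, while of the clamp and Okazaki genes FEN1 was.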

How the data were processed

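RNA-seq was analysed in 4 samples of BE(2)C cells, 2 of Ctrl and 2 of MYCN KD, grouped by their labels. Per the labels and methods, the authors aligned reads to hg19 with HISAT2 2.1.0, counted them on RefSeq genes with featureCounts, normalized with DESeq2, took out unwanted variation with RUVSeq and deposited RPKM made from the normalized counts, 1 file per sample. The RUVSeq variant, its number of factors and the strand of counting are not given in the sources used here. Such normalization can move the spread between replicates, and the counts before it were not used here. Whole normalized reads followed from the RPKM steps for all 19908 genes above 0 (100.0%, within 0.005 of a read). The lowest whole number was taken, so a gene's reads are stated as at least that many.

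In R 4.3.3, limma 3.58.1 (lmFit, eBayes with a trend) was run on log2(RPKM + 1) of the 11411 genes whose mean RPKM reached 1. Benjamini-Hochberg adjustment covered all of them, with a threshold of 0.05. The fit was tested on simulated counts with independent samples. These lacked the mirrored replicates of the data, so the p-values were not checked under such mirroring. Ratios used the exact two-sided permutation test. A gene whose 2 MYCN KD values both lie below, or both lie above, the 2 Ctrl values is said not to overlap. The members and lists were chosen with earlier results of these data known, and every member is named or counted in its step. The list of 28 other replication genes includes PCLAF, which is listed as KIAA0101. The 4 rows with duplicated names were kept as separate rows. The values of 1 neuroblastoma marker are not reported here on their own. Promoters came from RefSeq (GRCh38.p14), and gene spans from GENCODE lifted to GRCh37, the build of the reads. A planned search for a PCNA-binding motif in the proteins was not run. Other steps used Python 3.11.15 with scipy 1.17.1, pandas 2.3.3, numpy 2.4.6 and matplotlib 3.10.9. Alternatives were another pseudocount, other filters, 2 other scalings, eBayes without a trend, a replicate block, each sample left out, and limma voom on the recovered reads. These reads are normalized counts, so limma voom is not a separate check on raw counts.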

Additional observations from a re-analysis of the deposited data

How the results depend on the processing

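The median log2 fold change of the 51 members ran from -0.416 to -0.326 over the 12 alternatives of the processing, and that of MYCN from -0.577 to -0.378. The call of MYCN was kept in every alternative that used all samples. The count of lower members was 36 in the fit as reported, and 27 with no filter on low values, with each sample scaled to the same total and with the replicate block. The count of all tested genes that were lower was 1851 with the replicate block, and 1868 were higher when a mean RPKM of 5 was required. The 1 higher member, ORC4 of licensing, was below that stricter filter and was not tested under it. Its call was lost with quantile normalization and with the replicate block. The calls lost with no filter were those of CLSPN, DBF4, DNA2, PCNA, POLA1, POLD1, POLD2, PRIM2 and RFC5, and those lost with the replicate block were those of CLSPN, GINS4, POLA2, POLD1, PRIM2, RFC2, RFC4, RFC5 and RPA2. Lower polymerase genes numbered 4 with no filter and 5 with the replicate block. Lower clamp and Okazaki genes numbered 3 with no filter, with the same total and with the block, and lower fork protection genes 2 with the same total and with the block. Of 609 results of a member under an alternative, 522 kept direction and call, 61 lost the call, 12 gained it and 14 changed sign. These counts include the fits with a sample left out, whose calls rest on the spread within 1 group only.

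Each change of sign was in a gene or pair that had not passed the threshold. With a sample left out, the log2 fold change ran from -0.265 to 0.018 for ORC3, from -0.292 to 0.024 for CDC7, from -0.122 to 0.083 for TOPBP1 and from -0.280 to 0.055 for WDHD1, above 0 without replicate 2 of either group. For LIG1 it ran from -0.065 to 0.027, above 0 without replicate 1 of either group. With each sample scaled to the same total it was 0.039 for TOPBP1, 0.040 for LIG1 and 0.051 for RPA3, and with quantile normalization 0.044 for RPA3. That scaling to the same total moved all genes by a median of 0.055. With a sample left out, the difference in log2 ratio ran from -0.097 to 0.127 for CDT1 to GMNN, from -0.245 to 0.015 for MCM10 to MCM2 and from -0.117 to 0.126 for RFC4 to RFC1, which was -0.008 with a pseudocount of 1. The cause of these changes was not tested.

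Deviations of same-numbered samples from their group means had a correlation of -0.9845, so the samples of the 2 groups are tied in opposite directions, and nothing in the labels says what a replicate number shares. A crossed replicate block, added after seeing the data, called 50 members lower (8 of licensing and 7 of fork protection), and 5262 lower and 5910 higher genes in all. With 2 samples per group and mirrored deviations between the groups, the error of each gene rests on little, the p-values from limma may be too small or too large, and intervals and reads cover counting and replicate error of these samples only.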
